A study of Homo sapiens with 118 samples.

Results

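The class I histone deacetylases are HDAC1, HDAC2, HDAC3 and HDAC8, and their transcripts were followed in human HepaRG cells exposed to chemicals that inhibit histone deacetylases. Rows of the count table were taken as members when the gene symbol, without its probe number, was one of these 4 symbols. This gave 4 of the 19470 symbols measured, with 1 detector probe per gene, named HDAC1_2897, HDAC2_2900, HDAC3_22727 and HDAC8_22025. All 4 had enough counts to be tested in each of the 8 chemicals. The rule itself uses gene symbols and no measured value. Between the lowest and the highest concentration HDAC2 rose in 4 and HDAC3 in 5 of 8 chemicals, while 0% to 22.7% of all features rose, depending on the chemical. HDAC1 and HDAC8 passed the test in none of the 8.

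HepaRG is an established liver cell line, derived from a liver tumour and used here after differentiation. Cells were exposed for 72 hours, with the chemical renewed daily, to vorinostat, trichostatin A, panobinostat, scriptaid, mocetinostat, tacedinaline, apicidin or valproic acid. Each was used at 5 concentrations, with C1 the lowest and C5 the highest. There were 118 libraries in 40 groups. 38 groups had 3 libraries, 1 from each of 3 HepaRG batches, and panobinostat C3 and trichostatin A C4 had 2, without batch 3. Per the labels, concentrations ran from 0.041722 to 0.86 µM for apicidin, 0.177222 to 3.9 µM for mocetinostat, 0.001468 to 0.084 µM for panobinostat and 4.94 to 94.5 µM for scriptaid. They ran from 1.143333 to 44 µM for tacedinaline, 0.018811 to 1.5237 µM for trichostatin A and 0.404778 to 23.5 µM for vorinostat. For valproic acid the dose labels ran from 100.478 to 3038, and because the protocol text gives it on another scale, its unit was not settled here. Solvent controls were not used here, so C1 of the same chemical was the reference, and a response already present at C1 would not be seen. Libraries of apicidin, mocetinostat, panobinostat, trichostatin A and valproic acid lay on plate H and the others on plate E, so plate and chemical cannot be told apart in levels, while each change from C1 to C5 lies within 1 plate. The batches are batches of 1 line, so p-values measure the spread between these cultures.

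Histone deacetylases remove acetyl groups from lysines of histones and other proteins, which is generally tied to closed chromatin and low transcription. The class I enzymes hold a zinc ion at the active site and are mostly nuclear. HDAC1 and HDAC2 are close paralogs that form the catalytic core of the SIN3, NuRD, CoREST and MiDAC complexes, HDAC3 is the catalytic subunit of the SMRT/NCoR complexes and represses metabolic genes in liver, and HDAC8 acts outside these complexes and deacetylates the cohesin subunit SMC3. The chemicals block the active site through different zinc-binding groups. Panobinostat, scriptaid, trichostatin A and vorinostat are hydroxamates, mocetinostat and tacedinaline are benzamides, apicidin is a cyclic tetrapeptide and valproic acid is a short branched fatty acid.

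The promoter windows of the 4 genes are shown because a pair of the genes was called at C5 and the other pair was not. Each runs from 250 bases before to 50 bases after the annotated start in RefSeq (GRCh38.p14) and is given 5′ to 3′ on the strand of the gene. Capitals mark 2 motifs searched on both strands, the GC box (GGGCGG, the core bound by Sp factors) and the CCAAT box (CCAAT). HDAC1 lies at chr1:32291833-32292132 on the + strand, HDAC2 at chr6:113971099-113971398 on the - strand, HDAC3 at chr5:141636800-141637099 on the - strand and HDAC8 at chrX:72572794-72573093 on the - strand.
HDAC1: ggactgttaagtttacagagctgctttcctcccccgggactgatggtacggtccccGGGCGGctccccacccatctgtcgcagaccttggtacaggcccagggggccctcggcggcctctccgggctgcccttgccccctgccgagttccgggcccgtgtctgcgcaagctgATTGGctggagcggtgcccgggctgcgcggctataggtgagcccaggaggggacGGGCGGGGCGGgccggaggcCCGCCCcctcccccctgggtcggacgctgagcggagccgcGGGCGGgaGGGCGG
HDAC2: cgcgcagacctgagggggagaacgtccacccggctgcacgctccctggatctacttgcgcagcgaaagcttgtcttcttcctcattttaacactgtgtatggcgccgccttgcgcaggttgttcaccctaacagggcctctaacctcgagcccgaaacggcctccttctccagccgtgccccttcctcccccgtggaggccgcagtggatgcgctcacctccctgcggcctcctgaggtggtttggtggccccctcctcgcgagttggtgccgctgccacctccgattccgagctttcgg
HDAC3: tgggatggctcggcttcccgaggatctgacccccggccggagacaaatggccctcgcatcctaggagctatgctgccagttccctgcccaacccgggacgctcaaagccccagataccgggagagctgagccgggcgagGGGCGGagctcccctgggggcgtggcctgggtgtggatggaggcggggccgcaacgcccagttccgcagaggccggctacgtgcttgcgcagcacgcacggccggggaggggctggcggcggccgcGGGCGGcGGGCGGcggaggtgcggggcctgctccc
HDAC8: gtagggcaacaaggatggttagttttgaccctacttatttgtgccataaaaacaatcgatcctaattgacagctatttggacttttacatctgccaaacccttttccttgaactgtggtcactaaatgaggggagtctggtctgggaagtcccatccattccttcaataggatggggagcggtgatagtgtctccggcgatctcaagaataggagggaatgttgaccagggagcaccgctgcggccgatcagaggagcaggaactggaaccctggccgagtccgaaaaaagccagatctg
The HDAC1 window held 6 GC boxes, of which a pair overlapped, and 1 CCAAT box. The HDAC3 window held 3 GC boxes, and the HDAC2 and HDAC8 windows held neither motif. Among 35116 promoter windows of the same length, 44.95% held a GC box, 5.137% held 5 or more, and 34.61% held a CCAAT box. GC content was 73.67% for HDAC1, 64.0% for HDAC2, 74.0% for HDAC3 and 49.33% for HDAC8, against a median of 58.67% over all windows. Of the genes called at C5, HDAC3 held GC boxes and HDAC2 held none. A link between the motifs and the changes was not tested. These matches describe letters only, and binding was not measured.

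Levels are given as CPM, the counts of a probe scaled to a common library size with TMM normalisation over all libraries. A count is a sequenced read assigned to a probe pair, and total counts lay between 1061359 and 5250260 per library. The raw counts of the members were 331 to 3122 for HDAC2, 40 to 1162 for HDAC3, 17 to 390 for HDAC1 and 10 to 129 for HDAC8. The probes capture their targets with unlike efficiency, so levels were compared between groups for 1 gene and never between genes. Over 11623 features, libraries correlated with the others of their group at a median r of 0.956, and in 6 of the 40 groups the library least like the others was under 0.9, and these 6 are called here the libraries that stood apart. They were scriptaid C4 batch 3 (0.803), mocetinostat C2 batch 3 (0.831), trichostatin A C1 batch 3 (0.873), mocetinostat C3 batch 1 (0.888), apicidin C4 batch 1 (0.892) and valproic acid C4 batch 3 (0.893). In the groups of lowest likeness, mocetinostat C2 batch 1 (0.8725) and scriptaid C4 batches 1 (0.8622) and 2 (0.8739) were also under 0.9. Cells are labelled as liver progenitors. At C1 the hepatocyte marker ALB had a median of 22460 CPM, and of the 7 progenitor and biliary markers SOX9 had a median of 23.2 CPM, KRT19 37.1 CPM at its stronger probe and SPP1 7.26 CPM, with 0 libraries at 0. KRT7 and PROM1 had medians of 1.09 (stronger probe) and 0.108 CPM, the biliary marker CFTR was at 0 in 21 of 24 libraries and the epithelial progenitor marker EPCAM in 24. Hepatocyte markers and part of the progenitor and biliary markers were thus present.

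**Figure D1:**
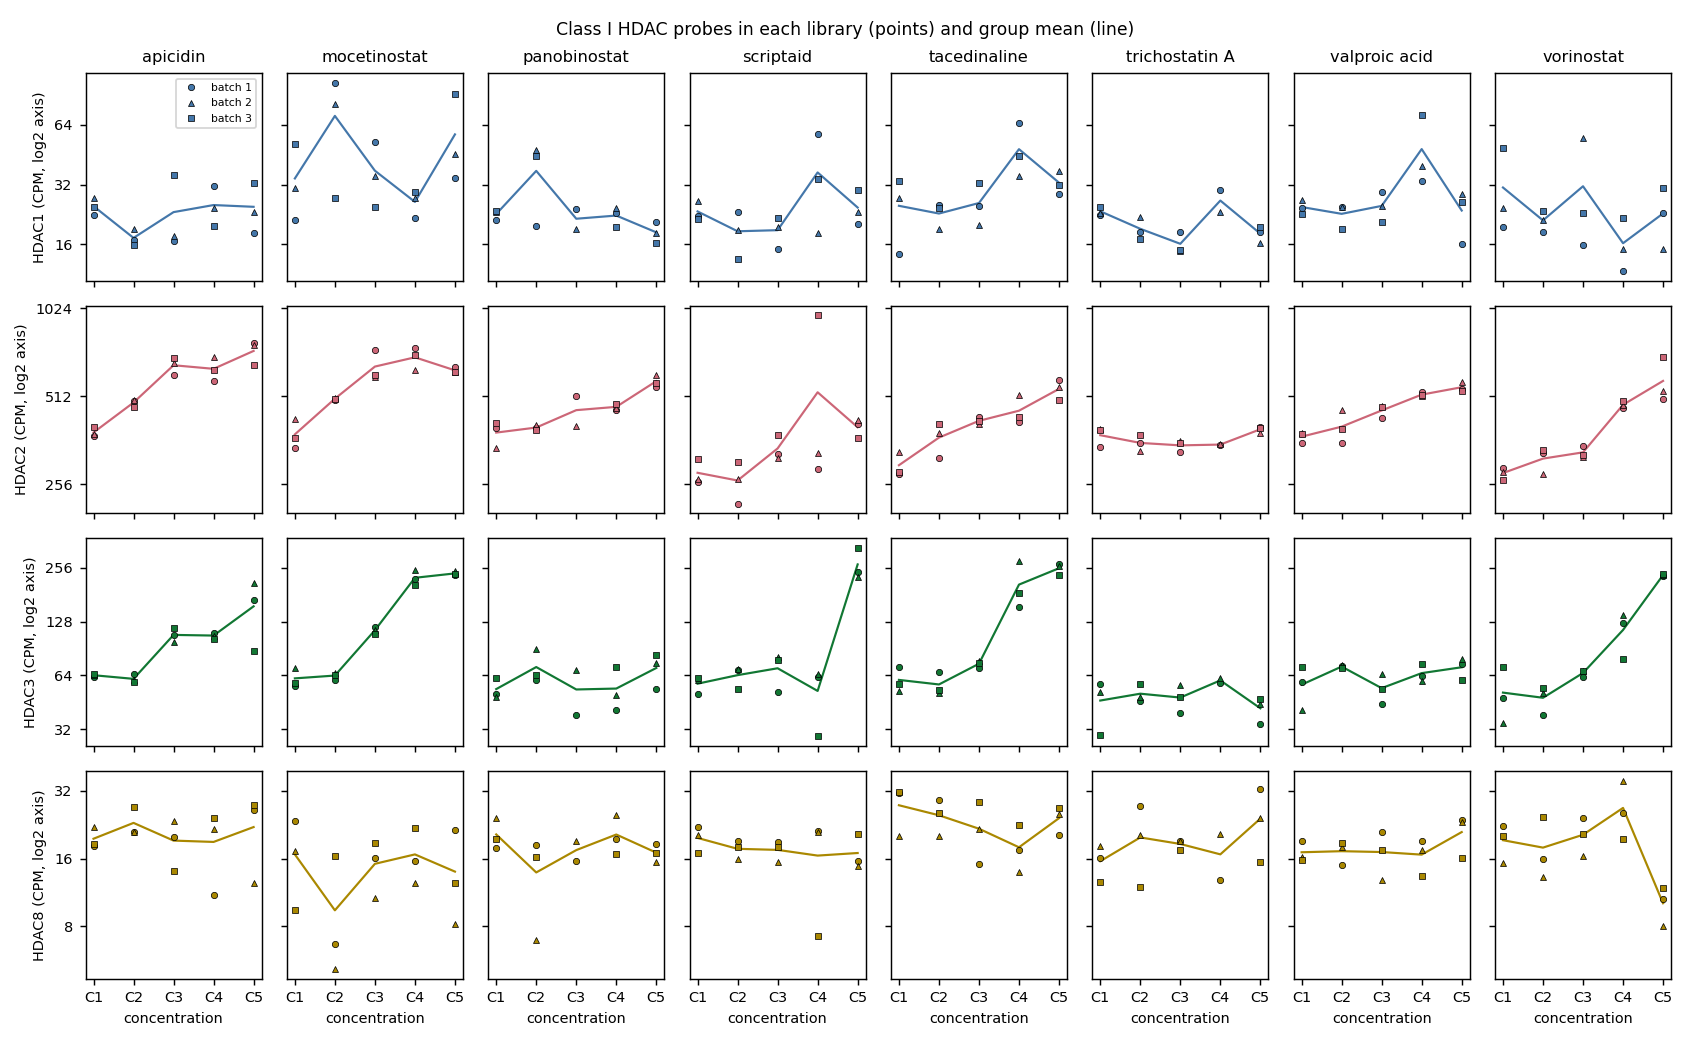
CPM (log2 axis) of the HDAC1, HDAC2, HDAC3 and HDAC8 probes in each of the 118 libraries against concentration C1 to C5, for the 8 chemicals. Points are libraries, with symbols for HepaRG batch, and lines join group means. HDAC3 climbs from about its C1 level to between 228 and 331 CPM at C5 of scriptaid, tacedinaline, mocetinostat and vorinostat, HDAC2 climbs less steeply, and HDAC1 and HDAC8 scatter.

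HDAC2, a catalytic subunit of the nuclear corepressor complexes, rose at C5 in 4 of 8 chemicals by the rule used throughout (edgeR quasi-likelihood test, Benjamini-Hochberg adjusted p under 0.05 over all features and a fold change of at least 1.5). The share of all features (probes tested) that rose was 13.8% in apicidin, 14.8% in mocetinostat, 18.7% in tacedinaline and 22.7% in vorinostat, the chemicals with a call. It was 6.77% in panobinostat, 12.8% in scriptaid, 0.0% in trichostatin A and 4.84% in valproic acid. In vorinostat HDAC2 stood at 292, 282 and 265 CPM at C1 and at 502, 533 and 698 CPM at C5 (batches 1, 2 and 3). The log2 change was 1.15 (SE 0.136, adjusted p = 1.22e-08), and every C5 library lay above every C1 library. In apicidin it stood at 374, 381 and 401 CPM at C1 and at 776, 763 and 655 CPM at C5. This was a log2 change of 0.94 (SE 0.125, adjusted p = 8.64e-06). In tacedinaline HDAC2 went from 279, 331 and 283 CPM to 580, 549 and 499 CPM, a log2 change of 0.94 (SE 0.129, adjusted p = 9.86e-08). In mocetinostat it went from 340, 428 and 370 CPM to 645, 620 and 619 CPM, a log2 change of 0.81 (SE 0.163, adjusted p = 0.00123). All 4 of these chemicals had C1 and C5 libraries that did not overlap.

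Panobinostat and valproic acid lay just under the fold limit. HDAC2 had 398, 341 and 416 CPM at C1 of panobinostat and 552, 607 and 570 CPM at C5, a 1.48-fold difference with an adjusted p of 0.00661. In valproic acid it had 354, 385 and 379 CPM at C1 and 542, 573 and 534 CPM at C5, a log2 difference of 0.57 (SE 0.125, adjusted p = 0.00378). Both therefore passed the p limit without counting as calls, and 7.45% and 5.44% of features were higher at that p limit alone. In scriptaid, HDAC2 had 261, 267 and 313 CPM at C1 and 410, 425 and 368 CPM at C5, with no overlap. The fitted log2 difference of 0.59 had an SE of 0.346 and did not pass (adjusted p = 0.213). In that chemical the C4 libraries read 288, 329 and 968 CPM, and that of batch 3 is the library that stood apart from its group. Without that library the C5 difference was 0.57 (SE 0.161, adjusted p = 0.00549), past the p limit and under the fold limit. That alternative was chosen after seeing the data.

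Trichostatin A gave no such difference: HDAC2 was at 343, 395 and 392 CPM at C1 and at 401, 383 and 400 CPM at C5. The log2 difference was 0.08 with a 95% interval of -0.23 to 0.40, and the groups overlapped. Trichostatin A was also the chemical in which, of 12993 features, 0 rose and 0.0154% fell. Counting all chemicals, HDAC2 was higher at C5 in 23 of 24 chemical and batch pairs. How common such a count of pairs is among all features was not tested. C1 and C5 libraries of HDAC2 were apart in 7 of 8 chemicals. Among all features, every C5 library lay above every C1 library for 23.5% in apicidin, 24.4% in mocetinostat, 20.9% in panobinostat and 24.1% in scriptaid, and for 22.9% in tacedinaline, 5.04% in trichostatin A, 16.5% in valproic acid and 25.3% in vorinostat.

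The HDAC2 rise began below C5. The comparisons of C2 to C5 with C1 share the C1 libraries of their chemical. None of the 4 genes was called at C2 in any chemical, where 0.0865% of all combinations of feature and chemical were called by edgeR. At an unadjusted p under 0.05 there were 2 chemicals for HDAC1, 3 for HDAC2 and 0 for HDAC3 and HDAC8. The share of all features at that unadjusted limit was not counted. In mocetinostat, leaving out the C2 library that stood apart added calls. HDAC1 was then called as higher (log2 change 1.54, adjusted p = 0.00708) and HDAC8 as lower (log2 change -1.38, adjusted p = 0.0458). With all its libraries, 0.191% of features were called at C2 of mocetinostat. The share called without that library was not counted, so these calls cannot be read as particular to the 2 genes. The calls of HDAC2 and HDAC3 at C3 of mocetinostat and at C4 of apicidin held without the libraries that stood apart there. At C3, HDAC2 was called in apicidin (606, 663 and 692 CPM, log2 change 0.77, adjusted p = 2.14e-04) and in mocetinostat (738, 597 and 605 CPM, log2 change 0.80, adjusted p = 0.00395), where 6.94% and 6.44% of features rose. At C4 it was called in apicidin, mocetinostat, tacedinaline and vorinostat, against 11.1%, 12.1%, 16.3% and 15.6% of features. In mocetinostat the level at C3 (647 ± 79.2 CPM, SD, n = 3) was already that at C5 (628 ± 14.6 CPM), with overlapping libraries. In valproic acid the C4 libraries read 529, 511 and 516 CPM, a log2 difference of 0.49 that passed the p limit (adjusted p = 0.0120, as did 6.14% of features upward) and not the fold limit. The trend test over all 5 concentrations called HDAC2 in 4 of 8 chemicals, where 17.2% (apicidin), 17.9% (mocetinostat), 21.8% (tacedinaline) and 24.4% (vorinostat) of features rose. It called HDAC3 in the same 4 and in scriptaid, where 6.83% rose.

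At C1 the HDAC2 level was not the same in all chemicals. Group means were 373 to 385 CPM in the 5 chemicals of plate H and 280 to 298 CPM in the 3 chemicals of plate E, and the valproic acid and tacedinaline libraries, neighbours across that gap, did not overlap. Neighbouring chemicals overlapped at C1 for HDAC1, HDAC3 and HDAC8. At C5 of HDAC2 the order was apicidin (731 ± 66.4 CPM, SD, n = 3), mocetinostat (628 ± 14.6), vorinostat (578 ± 105), panobinostat (577 ± 28.0), valproic acid (550 ± 20.4), tacedinaline (542 ± 41.1), scriptaid (401 ± 29.7) and trichostatin A (395 ± 10.4). Neighbours in this order overlapped except apicidin and mocetinostat, and tacedinaline and scriptaid. Over all 40 groups, 38 of 39 neighbouring pairs overlapped.

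HDAC3, the deacetylase of the SMRT/NCoR complexes, rose further, in 5 of 8 chemicals at C5. In vorinostat it read 48.1, 34.8 and 71.2 CPM at C1 and 230, 233 and 236 CPM at C5. The log2 change was 2.29 (SE 0.222, adjusted p = 2.09e-10), or 4.90-fold with a 95% interval of 3.47 to 6.90. In scriptaid it read 50.5, 60.0 and 62.2 CPM at C1 and 243, 228 and 331 CPM at C5, a log2 change of 2.29 (SE 0.300, adjusted p = 1.71e-05), against 12.8% of features rising. In tacedinaline it read 71.6, 52.4 and 57.4 CPM at C1 and 269, 262 and 233 CPM at C5, a log2 change of 2.17 (SE 0.187, adjusted p = 7.04e-13). Mocetinostat gave 56.2, 70.9 and 57.9 CPM at C1 and 232, 247 and 236 CPM at C5, a log2 change of 2.03 (SE 0.184, adjusted p = 5.33e-07). In these 4 chemicals the C5 libraries read 228 to 331 CPM and no C1 library was above 71.6 CPM.

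In apicidin the HDAC3 rise was smaller and uneven between batches. The C1 libraries read 63.1, 64.2 and 65.3 CPM and the C5 libraries 170, 210 and 88.1 CPM. The log2 change was 1.29 (SE 0.224, adjusted p = 1.61e-04), and batch 3 lay nearest to C1 while still above it. Panobinostat, valproic acid and trichostatin A gave no call. HDAC3 read 50.5, 48.3 and 62.3 CPM at C1 of panobinostat and 53.5, 74.7 and 83.3 CPM at C5, a log2 difference of 0.38 with a 95% interval of -0.20 to 0.96. It read 58.7, 40.9 and 70.9 CPM at C1 of valproic acid and 73.8, 79.0 and 60.7 CPM at C5, a log2 difference of 0.33 with an interval of -0.13 to 0.79. In trichostatin A it read 57.4, 51.8 and 29.9 CPM at C1 and 34.5, 44.2 and 47.2 CPM at C5, a log2 difference of -0.13 with an interval of -0.68 to 0.41. Without its C1 library of batch 3, which stood apart, the difference was -0.38 (adjusted p = 0.522). In each of these 3 chemicals C1 and C5 libraries overlapped.

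The concentration at which HDAC3 rose differed between chemicals. At C3 it was called in apicidin (107, 98.9 and 117 CPM, log2 change 0.75, adjusted p = 0.0238) and mocetinostat (120, 115 and 109 CPM, log2 change 0.92, adjusted p = 0.00283). At C4 it was called in mocetinostat (220, 250 and 205 CPM), tacedinaline (154, 278 and 186 CPM), vorinostat (126, 139 and 79.1 CPM) and apicidin (111, 107 and 103 CPM), with log2 changes of 1.93, 1.85, 1.21 and 0.75. Of all features, 6.94% and 6.44% rose at C3 of apicidin and mocetinostat. At C4 12.1% rose in mocetinostat, 16.3% in tacedinaline, 15.6% in vorinostat and 11.1% in apicidin. Scriptaid stayed near its C1 level through C4, where its libraries read 62.7, 65.4 and 29.2 CPM, and was called at C5 alone. The lowest of these 3 is again the library that stood apart. At C5 the order was scriptaid (267 ± 55.3 CPM, SD, n = 3), tacedinaline (255 ± 19.0), mocetinostat (238 ± 7.75) and vorinostat (233 ± 3.15), whose libraries overlapped from neighbour to neighbour. Apicidin (156 ± 62.0) came next and was apart from vorinostat, followed by valproic acid (71.2 ± 9.42), panobinostat (70.5 ± 15.4) and trichostatin A (42.0 ± 6.67).

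HDAC1, the paralog of HDAC2, did not pass the test at C5 in any of 8 chemicals. Log2 differences lay between -0.36 in trichostatin A and 0.82 in mocetinostat, adjusted p lay between 0.218 and 0.997, and the unadjusted p was under 0.05 in 0 chemicals. DESeq2 also made 0 calls. SEs were 0.249 to 0.481, and the interval in mocetinostat ran from -0.25 to 1.89. In that chemical HDAC1 read 21.1, 30.8 and 51.2 CPM at C1 and 34.5, 45.7 and 91.8 CPM at C5. All 3 batches were higher and the groups overlapped. C1 and C5 libraries were apart in 2 chemicals, both with lower values at C5. In panobinostat HDAC1 read 21.3, 23.3 and 23.6 CPM at C1 and 20.7, 18.2 and 16.2 CPM at C5, a log2 difference of -0.32 (adjusted p = 0.514). In trichostatin A it read 22.5, 23.1 and 24.8 CPM at C1 and 18.4, 16.3 and 19.5 CPM at C5, a log2 difference of -0.36 (adjusted p = 0.685). Every C5 library lay below every C1 library for 21.1% of all features in panobinostat and 5.23% in trichostatin A. The mocetinostat C2 libraries held the highest group mean of all 40 (71.1 ± 39.7 CPM), from 105, 81.4 and 27.3 CPM. The low library, of batch 3, is the one that stood apart from its group. It lay near the median of the 40 group means (24.6 CPM), and the high values came from batches 1 and 2. Batch 1 also correlated with its group at under 0.9 (0.8725), so which of these libraries are unusual cannot be told.

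HDAC1 was called below C5 in 2 chemicals. In tacedinaline it read 14.3, 27.2 and 33.4 CPM at C1 and 65.3, 35.2 and 44.4 CPM at C4, a log2 change of 0.94 (adjusted p = 0.00851), and 28.7, 37.7 and 31.8 CPM at C5. By batch the change from C1 to C4 was 2.14, 0.36 and 0.40 on the log2 scale. It was thus far larger in batch 1, whose C1 library was the lowest of its group. In valproic acid it read 24.2, 26.9 and 22.8 CPM at C1 and 33.3, 39.5 and 72.2 CPM at C4, a log2 change of 0.98 (adjusted p = 0.0274), and 16.0, 28.7 and 26.2 CPM at C5. In both, the C4 libraries lay above all C1 libraries and the C5 libraries did not. The highest of the valproic acid C4 libraries is the one of batch 3 that stood apart, and without it the log2 difference was 0.57 and did not pass (adjusted p = 0.188). At C4, 16.3% and 5.51% of all features rose in these chemicals. The trend test called HDAC1 in tacedinaline, with a fitted change of 0.84 (SE 0.282, adjusted p = 0.0158) against 21.8% of features. The call was lost without batch 1 (adjusted p = 0.172) and without batch 2 (adjusted p = 0.0518). Neighbouring groups of HDAC1 overlapped in 39 of 39 pairs. The count was 38 of 39 for HDAC3, which was called at C5, so it does not tell genes that changed from others.

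HDAC8, the member outside the large complexes, gave no call at C5 in any of 8 chemicals. Differences on the log2 scale ran from -0.82 in vorinostat to 0.65 in trichostatin A, with SEs of 0.269 to 0.476. By edgeR the unadjusted p was under 0.05 in 1 chemical, and DESeq2 made 0 calls. That chemical was vorinostat, where HDAC8 read 22.4, 15.4 and 20.2 CPM at C1, 25.4, 35.5 and 19.6 CPM at C4 and 10.6, 8.01 and 11.8 CPM at C5. The C5 libraries lay below every C1 library (adjusted p = 0.0598), in a chemical where 24.9% of features fell and 33.1% had every C5 library below every C1 library. Under 1 model of all libraries the same difference was -0.93 with an adjusted p of 0.0455. In the other 7 chemicals C1 and C5 libraries overlapped. Its counts were the lowest of the 4 genes, and 39 of 39 neighbouring groups overlapped, against 38 of 39 for HDAC2 and for HDAC3.

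One model of all 118 libraries, over 15632 features, gave the mean change from C1 to C5 over the 8 chemicals. It was 1.29 on the log2 scale for HDAC3 (SE 0.0838, adjusted p = 6.64e-26) and 0.66 for HDAC2 (SE 0.0607, adjusted p = 2.77e-17). These are 2.44-fold and 1.58-fold, and 15.1% of features were called as rising in this mean. The mean was -0.01 for HDAC1 (95% interval -0.26 to 0.24) and -0.09 for HDAC8 (-0.34 to 0.15), neither of which passed. The intervals of HDAC1 and HDAC8 leave out a mean change of 1.5-fold in either direction. Among 11288 features tested in all chemicals, 11.0% rose in at least 4 of 8 chemicals and fell in none, as HDAC2 did, and 7.13% rose in at least 5, as HDAC3 did.

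The size of the change differed between chemicals for HDAC3 (test of the 7 differences between chemicals, adjusted p = 1.98e-12) and for HDAC2 (adjusted p = 0.0189), while 30.3% of features passed this test. Without trichostatin A the test still passed for HDAC3 (adjusted p = 9.78e-09) and no longer for HDAC2 (adjusted p = 0.414), against 21.2% of features. For HDAC1 and HDAC8 it gave adjusted p of 0.452 and 0.231. C5 is a different concentration in each chemical, so this compares the highest concentrations used and not matched doses.

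Side by side, the hydroxamates spanned the whole range for HDAC3. Vorinostat and scriptaid rose by 2.29 each, while panobinostat and trichostatin A stood at 0.38 and -0.13. The benzamides mocetinostat and tacedinaline, at 3.9 and 44 µM, gave 2.03 and 2.17 for HDAC3 and 0.81 and 0.94 for HDAC2. No concentration was shared between chemicals, so no test of 1 structure against another was made.

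**Figure D2:**
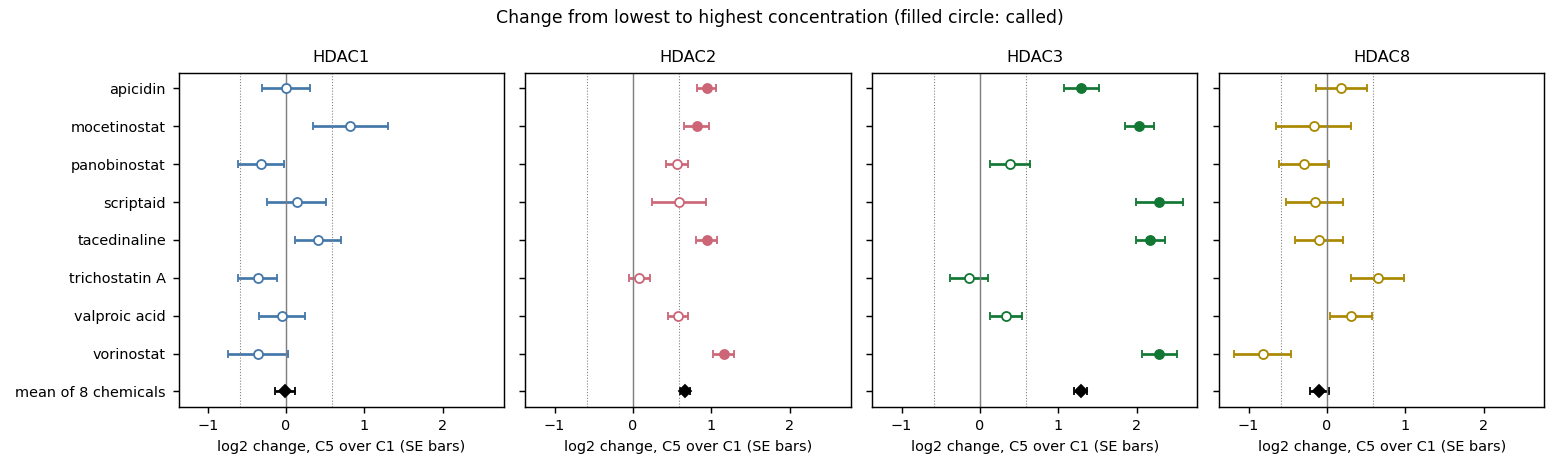
Log2 change from C1 to C5 of each class I HDAC in the 8 chemicals (circles, bars are SE, filled where called) and the mean over chemicals from the model of all libraries (diamonds). Dotted lines mark a 1.5-fold change. HDAC2 lies right of 0 in all 8 chemicals, HDAC3 splits into 5 chemicals from 1.29 to 2.29 and 3 from -0.13 to 0.38, and HDAC1 and HDAC8 lie on both sides of 0.

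The balance between members was followed with log2 ratios of 2 probes in the same library, which do not depend on library scaling. Each C5 library was paired with the C1 library of its chemical and batch, giving 24 pairs, and the 6 pairs of genes were tested with 100000 random sign flips (permutation test, two-sided). The pairs of 1 batch share their cells and the 3 pairs of 1 chemical share its exposure, so the 8 chemical means were also tested, with all 256 sign flips (exact p, two-sided, 0.00781 at the smallest). The ratio of HDAC1 to HDAC3 fell by 1.28 ± 0.94 (SD, log2 scale) and was higher in 2 of 24 pairs (permutation adjusted p = 3e-05, from the smallest p these permutations can give). Over chemicals it was lower in 8 of 8 (exact adjusted p = 0.0234). The ratio of HDAC1 to HDAC2 fell by 0.66 ± 0.56 and was higher in 3 of 24 pairs (permutation adjusted p = 3e-05), and over chemicals it was lower in 8 of 8 (exact adjusted p = 0.0234). HDAC2 fell relative to HDAC3 by 0.62 ± 0.86 over the 24 pairs (permutation adjusted p = 0.00271), with 8 pairs the other way. With 1 mean per chemical that shift did not pass (exact adjusted p = 0.113), being lower in 5 chemicals and higher in 3. Relative to HDAC8, HDAC2 rose by 0.76 ± 0.79 and HDAC3 by 1.38 ± 1.38, each in 20 of 24 pairs (permutation adjusted p = 0.00014 and 0.000195). Over chemicals each was higher in 7 of 8 (exact adjusted p = 0.0469 for both). The mean shift of HDAC1 against HDAC8 was 0.10 ± 0.73 and did not pass (permutation adjusted p = 0.502). This mean joins opposite directions, with the ratio higher in 4 chemicals and lower in 4. It ran from -0.93 ± 0.33 in trichostatin A to 0.95 ± 0.58 in mocetinostat.

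**Figure D3:**
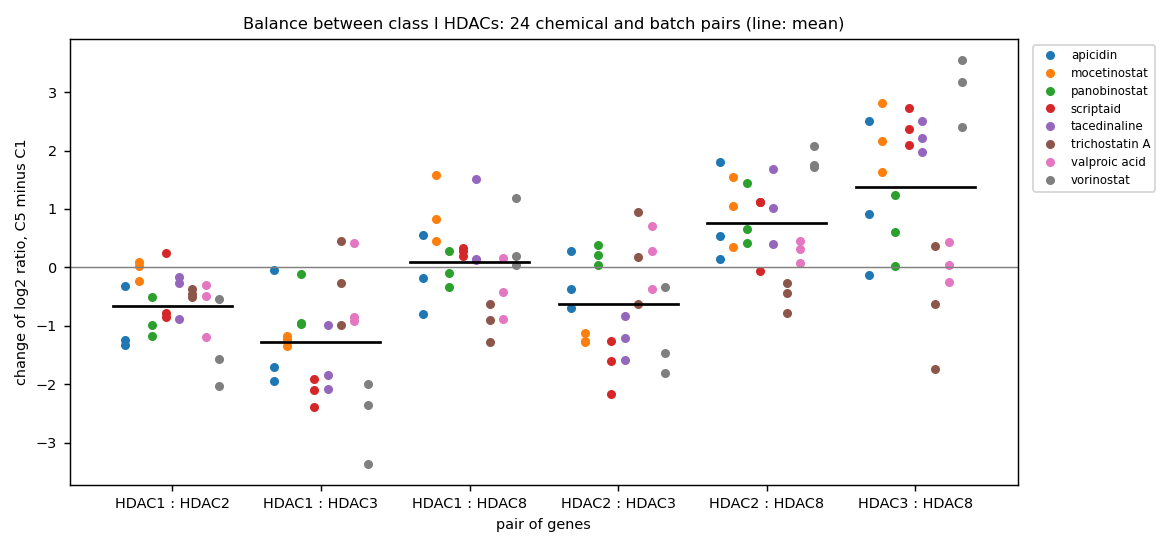
Change of the log2 ratio of 2 class I HDAC probes from C1 to C5 for each of the 24 chemical and batch pairs, coloured by chemical, with the mean as a line. HDAC1 to HDAC3 has the lowest mean (-1.28) and HDAC3 to HDAC8 the highest (1.38), while HDAC1 to HDAC8 centres on 0.10.

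By chemical, the ratio of HDAC2 to HDAC3 shifted by -1.67 ± 0.46 in scriptaid, -1.22 ± 0.09 in mocetinostat, -1.20 ± 0.38 in tacedinaline and -1.20 ± 0.77 in vorinostat, with apicidin at -0.26 ± 0.50. In panobinostat it was 0.21 ± 0.18, in valproic acid 0.21 ± 0.54 and in trichostatin A 0.17 ± 0.79. Single chemicals, with 3 pairs each, were not tested.

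Patterns were compared by Pearson r over the 40 group means of log2 CPM, centred within each chemical, across 11288 features. The groups of a chemical share plate and reference, and r is given as a description. HDAC2 and HDAC3 had r = 0.70 with each other, and HDAC1 and HDAC8 had r = -0.58. Of the 40 groups, mocetinostat C2 had both the highest HDAC1 mean (71.1 ± 39.7 CPM) and the lowest HDAC8 mean (9.43 ± 6.09 CPM). That group holds a library that stood apart, of batch 3, which read 27.3 CPM for HDAC1. The high HDAC1 values came from the other libraries of the group. The features most like HDAC2 were RING1 (0.96), NCAM1 (0.95) and WDR3 (0.95). RING1 is a ubiquitin ligase of Polycomb complexes and NCAM1 a cell adhesion molecule. Those most like HDAC3 were SRP54 (0.96), a subunit of the signal recognition particle, DPM1 (0.96) and AFTPH (0.95), and each of the 3 was called as rising in 5 chemicals. The closest features of HDAC1 (STX5, B3GAT3 and CHMP7) and of HDAC8 (PRKAR1A, LINC01279 and ZNF195) reached 0.73 and 0.71. None of these 6 rose at C5 in any chemical, and PRKAR1A, LINC01279 and ZNF195 each fell in 1. All the features named here were picked from these data for their likeness, so their calls follow in part from that choice.

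The subunits that bind the class I enzymes were counted over probe and chemical combinations at C5. SIN3 complex subunits rose in 44 of 105 combinations and fell in 3, SMRT/NCoR subunits rose in 10 of 56 and fell in 1, NuRD subunits rose in 2 of 81 and fell in 14, and CoREST subunits rose in 2 of 63 and fell in 9. The histone chaperones RBBP4 and RBBP7, shared by SIN3 and NuRD, rose in 4 of 24 and MiDAC subunits in 1 of 17, with none falling. Over all features 11.61% of combinations rose and 13.35% fell. BRMS1, a SIN3 subunit first known as a suppressor of metastasis, rose in 7 of 8 chemicals, by 0.59 (valproic acid) to 1.65 (mocetinostat) on the log2 scale, and stood at 0.37 in trichostatin A (adjusted p = 0.561). SAP30L, a SIN3 subunit, rose in 6, and ING1, a SIN3 subunit that reads histone methylation, rose in 5. SAP18 rose in 5 at probe SAP18_92874 and in 3 at probe SAP18_92873. GPS2, a core subunit of the SMRT/NCoR complexes beside HDAC3, rose in 5 chemicals, with a log2 change of 1.53 in vorinostat (107 ± 10.0 to 287 ± 30.6 CPM) and -0.06 in trichostatin A. CHD3, a NuRD remodelling ATPase, fell in 6 chemicals, most in mocetinostat by 3.12 on the log2 scale (89.9 ± 4.46 to 9.74 ± 1.72 CPM). The 13 probes of the other zinc-dependent deacetylases rose in 5 of 86 combinations and fell in 18. All these rises were at HDAC9 probes. The falls were at the HDAC6 probes, apart from 1 at the probe of HDAC7, which was tested in 6 chemicals.

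HDAC6, a mostly cytoplasmic tubulin deacetylase of class IIb, moved against HDAC2 and HDAC3. Its strongest probe, HDAC6_90749, fell in 7 of 8 chemicals, by 0.88 (panobinostat) to 1.59 (scriptaid) on the log2 scale, and read 764 ± 141 CPM at C1 and 312 ± 36.4 CPM at C5 of vorinostat. HDAC6_91641 also fell in 7 chemicals, while HDAC6_91428 and HDAC6_91698, with fewer counts, fell in 1 and 2. The chemical without a call at the strongest probe was trichostatin A, with a log2 difference of 0.52. HDAC9, a class IIa enzyme, rose at probe HDAC9_27305 in apicidin, mocetinostat and tacedinaline, with log2 changes of 2.00, 1.63 and 1.81. Its probe HDAC9_27304 rose in apicidin (2.68) and mocetinostat (2.29) and was not called in tacedinaline (0.67, adjusted p = 0.401). HDAC4, HDAC5, HDAC10 and HDAC11 gave no call at C5 at the probes tested in all chemicals. Their levels were low, so changes can be missed. At C1 of tacedinaline HDAC4 read 3.0 ± 3.8 CPM and HDAC10 11.5 ± 3.8 CPM, with SEs of 0.76 and 0.53 at C5. Median log2 differences over chemicals were 0.86 for HDAC4, 0.39 for HDAC5, -0.82 for HDAC10 and -0.46 for HDAC11.

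**Figure D4:**
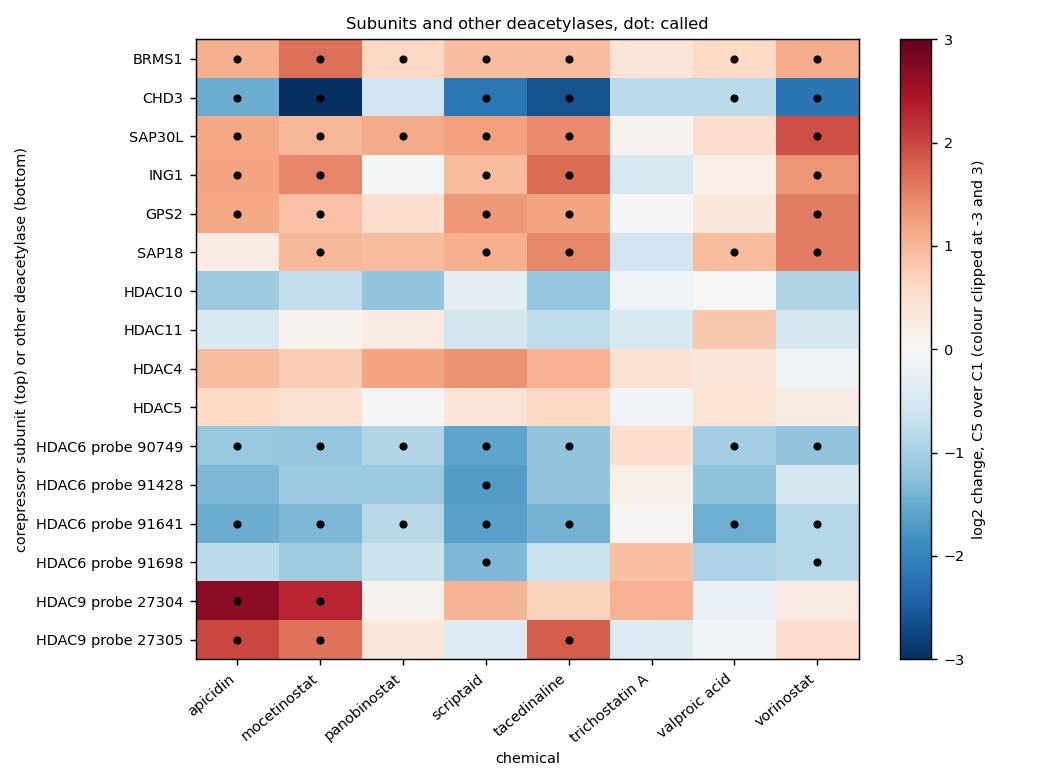
Log2 change from C1 to C5 of the named corepressor subunits and of the other deacetylases tested in all 8 chemicals, in colour (red higher, blue lower, clipped at -3 and 3), with a dot where called. BRMS1 and SAP30L are red in most columns, CHD3 and the stronger HDAC6 probes are blue, and the trichostatin A column has no dot.

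Hepatocyte markers fell most in the chemicals with the highest HDAC3. HDAC2 had another order, being highest at C5 in apicidin (731 CPM) and not called in scriptaid. In bulk lysates, fewer cells of a type and less RNA per cell cannot be told apart. The 15 hepatocyte marker probes had a median log2 change of -4.25 in tacedinaline, -4.01 in vorinostat, -3.71 in mocetinostat and -3.57 in scriptaid, the chemicals with the highest HDAC3, and of -2.10 in apicidin. It was -1.55 in valproic acid, -1.21 in panobinostat and 0.01 in trichostatin A, the chemicals without an HDAC3 call. In vorinostat the summed hepatocyte markers lay at 41730 to 52420 CPM at C1 and 3668 to 7157 CPM at C5. In trichostatin A it lay at 14830 to 62940 CPM at C1, with the lowest value in the library that stood apart, and at 40990 to 52110 CPM at C5. Proliferation markers fell in 43 of 81 combinations, stromal markers rose in 7 and fell in 27 of 58, and biliary and progenitor markers rose in 11 of 33, against 11.61% of all combinations rising and 13.35% falling. Immune markers fell in 3 of 16 combinations (18.75%) and endothelial markers in 1 of 10 (10.0%), shares near that background. The leukocyte marker PTPRC was at 0 in every library, as was 1 of the probes of the endothelial marker PECAM1, whose other probe had a median of 2.41 CPM at C1 and of 0 at C5. The part of the lost hepatocyte transcripts in the CPM of HDAC2 and HDAC3 was not tested.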

How the data were processed

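Transcripts in HepaRG lysates were measured by TempO-Seq: detector oligonucleotides bind next to each other on a transcript, are ligated, and the product is amplified and sequenced. The values deposited by the authors are whole-number counts, not normalised, for every probe and library. Per the submitters' processing notes, bcl2fastq 2.20.422, fastp 0.23.2, STAR 2.7.10b and DESeq2 1.38.0 were used, in roles not stated there, and the genome build and probe annotation are not given in the sources used here. Of 22069 rows, 1 (a SEC13 probe) lacked values in some libraries and was left out. No molecular identifiers were counted, so intervals cover counting error and the spread between cultures only.

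The libraries of 1 chemical at a time entered edgeR 4.0.16 in R 4.3.3 (filterByExpr, TMM, quasi-likelihood F test, Benjamini-Hochberg adjustment over all features tested), comparing C2 to C5 with C1 and fitting a slope on log2 concentration, given as the fitted change from C1 to C5. A gene was called where the change was 1.5-fold or more with an adjusted p below 0.05. A second model held all 118 libraries. CPM values were scaled over all libraries while log2 changes came from the fit of each chemical, and the scalings differ by -0.108 to 0.016 on the log2 scale for C5 against C1. The members and gene lists were chosen with earlier results of these data known. Named from the lists are deacetylases tested in all 8 chemicals and subunits called one way in at least 5 chemicals and never the other way, at most 8. Groups came from the labels, where batch numbers mark shared HepaRG batches. Deviations from group means correlated at a median r of 0.0361 between libraries of 1 batch (232 pairs) and -0.0145 between batches (464 pairs). Alternatives were RLE scaling, DESeq2 1.42.0, no filter, the batch as a block, leaving out each batch or single libraries, 1 model of all libraries, leaving out trichostatin A and, for ratios, other pseudocounts (2 counts otherwise). Leaving out the libraries that stood apart (other than trichostatin A C1 batch 3), the limit of 0.9 for these and the sign flips over chemical means were chosen after seeing the data. The fits were tested on simulated data. Promoter sequences came from RefSeq, where all 4 symbols matched. Detector probe and protein sequences were not used here.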

Additional observations from a re-analysis of the deposited data

Results flagged for a closer look

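The change from C1 to C5 differed between chemicals for 2 of the 4 genes. For HDAC3 the test of the differences between chemicals gave an adjusted p of 1.98e-12, with log2 changes from -0.13 (trichostatin A) to 2.29 (vorinostat). For HDAC2 it gave an adjusted p of 0.0189, with log2 changes from 0.08 (trichostatin A) to 1.15 (vorinostat). The concentrations behind C5 differ between chemicals, and their part in these differences cannot be told apart from that of the chemical.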

How the results depend on the processing

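Calls of single genes at C5 kept their direction under every alternative run, and 277 of the values so obtained stayed on the same side of the limits, while 3 gained a call. These were HDAC2 in scriptaid (0.71) and in valproic acid (0.60) without replicate 3, and HDAC8 in vorinostat in 1 model of all libraries (-0.93). That model therefore gave 1 falling pair of gene and chemical at C5 and 1 chemical with a call for HDAC8, where the separate fits gave 0 of each. For the trend, 240 values stayed on the same side, 3 gained a call and 5 lost it. The number of chemicals with a trend call for HDAC1 was 0 in the model of all libraries and 0 to 1 when each replicate was left out. HDAC3 in scriptaid lost its trend call without replicate 1 (adjusted p = 0.141) and without replicate 2 (adjusted p = 0.163). The F of the difference between chemicals for HDAC2 passed narrowly (adjusted p = 0.0189) and did not pass with no filter on low counts (F = 2.50, adjusted p = 0.0768), nor without trichostatin A (F = 1.42, adjusted p = 0.414). It ranged from 1.85 to 3.90 when each replicate was left out. The causes of these losses were not tested. With the HepaRG batch as a replicate block, 9 pairs of gene and chemical rose at C5, as without it, the mean change was 0.66 for HDAC2 and 1.28 for HDAC3, and no call changed. The ratios between members kept their direction and side under each alternative run, except that the ratio of HDAC2 to HDAC3 (-0.62) did not pass with 1 mean per chemical (exact adjusted p = 0.113). Below C5, leaving out 1 library that stood apart ended the call of HDAC1 at C4 of valproic acid (0.57, adjusted p = 0.188) and gave calls at C2 of mocetinostat for HDAC1 (1.54) and HDAC8 (-1.38). The share of all features called at C2 of mocetinostat without that library was not counted. SEs at C5 reached 0.481 for HDAC1 and 0.476 for HDAC8, and a difference of 0.82 for HDAC1 in mocetinostat did not pass, so changes of that size can be missed with 3 libraries a group.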
